A study of Homo sapiens with 34 samples.

Results

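The 37 genes described here encode the machinery that copies DNA in S phase, together with E2F1 and the cyclins E, which open that phase. They are listed by gene symbol, with no measured value in the rule, though the list was drawn up with earlier results of these data known, and each matched 1 of the 28690 loci in the expression tables. All 37 had a mean of at least 1 FPKM (fragments per kilobase of transcript, scaled to the mapped fragments of a library) over the 24 RNA-seq libraries, as did 13979 loci in all. RNA came from U2OS cells, a human osteosarcoma line, that stably carried a Bmal1:luc reporter, in which the promoter of the clock gene Bmal1 drives luciferase. Dexamethasone set the cultures to a common clock phase, and they were then kept in 6-aminonicotinamide (6AN) at 5 mM, which inhibits the pentose phosphate pathway (PPP), or in matched DMSO as control. rRNA-depleted total RNA was sequenced from 12 time points per condition, labelled 0 to 44 hr at 4 hr intervals, with 1 library at each. The study's methods give RNA extraction in triplicate, and whether each library pools those extracts is not stated. BMAL1, CLOCK, H3K4me3, H3K9ac and input ChIP-seq libraries, 1 of each per condition, were made after 24 hr of 6AN or DMSO. The study asked how inhibition of the PPP, a major source of NADPH, alters circadian oscillations, and these genes were not its subject. The labels do not say how long cells had been with 6AN at the label 0 hr.

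Replication starts in steps that a cell keeps apart. In G1, the origin recognition complex, CDC6 and CDT1 load the ring of MCM2 to MCM7 onto DNA in an inactive form. In S phase, kinases and loading factors add CDC45 and the GINS complex to that ring, which makes the active helicase, and polymerases, the PCNA clamp and its RFC loader then follow at the fork. Many of these genes are textbook targets of E2F transcription factors, which cyclin E and CDK2 release from the RB protein late in G1. The PPP also makes ribose 5-phosphate, a precursor of nucleotides.

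The RNA-seq tables were checked for the line's markers, as means per condition, and for relative depth. Of the 8 mesenchymal and osteoblast genes, 7 were expressed (VIM had a mean of 917 FPKM in control and 747 FPKM in 6AN), while COL1A2 was near 0 in both conditions. The locus counted for BGLAP also holds PMF1, so its FPKM does not show BGLAP alone. Of the genes of other cells, CDH1, PTPRC, PECAM1, ALB and GFAP had means under 1 FPKM, and EPCAM had a mean of 1.02 FPKM in control and 0.734 FPKM in 6AN. The tables hold no read counts, so each library's depth was estimated from loci detected in only a few libraries. The commonest ratio of their FPKM to that at 0 hr was inverted and divided by the median of its own table. This relative depth went from 0.574 (4 hr) to 1.32 (32 hr) in control and from 0.687 (20 hr) to 1.54 (32 and 40 hr) in 6AN. Summed FPKM was 975321 to 1089300 in control and 1080810 to 1281610 in 6AN, with the highest sum at 44 hr of 6AN. The authors normalized the control and 6AN tables separately, so levels are set across them without a test, and trends over time are tested within each table.

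The replication genes were lower with 6AN almost throughout. At each time point a log2 ratio was taken, log2((6AN FPKM + 1)/(control FPKM + 1)), which understates the change of genes with low FPKM. Of the 37 members, 35 were lower in 6AN at all 12 time points and none was higher at all 12. Over all expressed loci, 20.4% were lower at all 12 time points and 13.0% were higher at all 12. In 32 members every 6AN library lay below every control library, whereas 10.3% of expressed loci were so separated. The median of the members' mean log2 ratios was -0.89, with a range from -1.51 for GINS2 to -0.10 for CDT1 at the pseudocount of 1, and the median over all expressed loci was -0.04. In 13 members the mean log2 ratio was below -1. Of the 13979 expressed loci, 556 had a mean log2 ratio below the members' median. In this bulk RNA, fewer cells in S phase and less RNA of these genes per cell cannot be told apart.

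**Figure D1:**
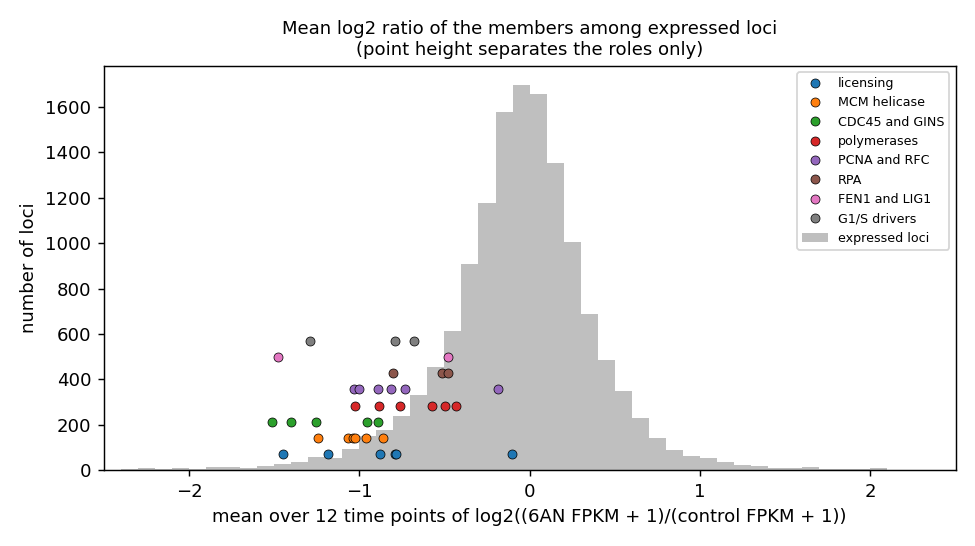
Histogram of the mean log2 ratio of 6AN to control over 12 time points for expressed loci (gray bars, x axis in log2 units, y axis in number of loci, 36 loci beyond the x axis not drawn), with the 37 members as points colored by role. The members lie between -1.51 and -0.10, left of the center of the histogram, and point height only separates the roles.

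E2F-type words were more frequent in the promoters of the members than in those of expressed genes. The choice of genes used no sequence, but many of them are known E2F targets, so the 2 are not independent. The 8-base E2F-type words TTTCGCGC, TTTGGCGC, TTTCCCGC and TTTGCCGC were searched on both strands of the RefSeq promoter table (build GRCh38.p14), from 250 bases before to 50 after each start. Of the 37 members, 31 were in the table, and MCM5, MCM4, GINS4, RPA2, RPA3 and CCNE2 were not. A word was present in 18 of these 31 genes (58.1%), in 3.99% of the 27305 genes of the table and in 6.69% of the 10106 expressed genes in it. CCAAT, the box bound by NF-Y, was present in 61.3% of the members and 42.9% of expressed genes. CACGTG, the E-box word recognized by BMAL1:CLOCK, was present in 16.1% of the members (MCM2, GMNN, MCM7, FEN1 and RPA1) and 12.5% of expressed genes. E2F-type words overlapped each other by 4 bases in MCM2 and MCM6, and overlapped a CCAAT box by 1 base in MCM7. Members with and without an E2F-type word overlapped in level. The median log2 ratio was -0.88 in the 18 genes with a word (from -1.51 to -0.10). It was -0.79 in the 13 without (from -1.48 to -0.19), and the difference was not tested. A match is a description of letters, and binding of E2F factors was not measured.

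The windows below run from 70 bases before the start to 20 after it, 5′ to 3′ on the gene's strand, for the 6 members with the lowest mean log2 ratios among those that were lower at all 12 time points and hold an E2F-type word in the table. Capitals mark the word. They are shown because each holds the word near its start, on one strand or the other.
GINS2 (chr16:85688935-85689024, minus strand): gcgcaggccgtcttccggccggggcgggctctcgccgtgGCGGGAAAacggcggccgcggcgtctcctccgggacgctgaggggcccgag
GINS1 (chr20:25407603-25407692, plus strand): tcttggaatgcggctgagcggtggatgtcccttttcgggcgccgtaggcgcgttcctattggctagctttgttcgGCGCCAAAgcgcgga
CDC6 (chr17:40287809-40287898, plus strand): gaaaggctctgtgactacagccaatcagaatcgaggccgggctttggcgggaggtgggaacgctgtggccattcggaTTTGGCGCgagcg
MCM3 (chr6:52284723-52284812, minus strand): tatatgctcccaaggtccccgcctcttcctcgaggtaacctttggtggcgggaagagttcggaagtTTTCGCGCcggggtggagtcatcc
MCM7 (chr7:100101378-100101467, minus strand): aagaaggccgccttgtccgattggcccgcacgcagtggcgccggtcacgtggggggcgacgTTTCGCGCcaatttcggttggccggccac
MCM2 (chr3:127598341-127598430, plus strand): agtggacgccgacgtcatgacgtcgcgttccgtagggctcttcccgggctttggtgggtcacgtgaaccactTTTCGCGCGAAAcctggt

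Of the 6 genes listed under licensing, a list that includes MCM10 and the inhibitor geminin, 4 were lower with 6AN at all 12 time points. CDT1 and ORC1 were the members that were not. MCM10 (chr10:13161553-13211104), which helps to switch on the loaded helicase, ranged from 12.8 FPKM over a median of 15.6 to 17.8 FPKM in control. It ranged from 2.85 FPKM (44 hr) over 4.68 to 7.52 FPKM (0 hr) in 6AN. The conditions did not overlap, and the mean log2 ratio was -1.45 ± 0.33 (SD over 12 time points). CDC6 (chr17:40287893-40303161), the ATPase that joins the origin recognition complex to load MCM, had 22.1, 28.6 and 33.8 FPKM in control as lowest, median and highest, and 6.96, 12.8 and 18.1 FPKM in 6AN. Its mean log2 ratio was -1.18 ± 0.29, again without overlap. Geminin (GMNN), the inhibitor that holds CDT1 inactive outside G1, had medians of 19.8 FPKM in control and 10.6 FPKM in 6AN. ORC6, a subunit of the origin recognition complex, had 17.9 and 9.85 FPKM.

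CDT1 (chr16:88803777-88809258), the partner of CDC6 in loading MCM, crossed from above to below control. In 6AN it went from 30.1 FPKM at 0 hr through 24.8, 21.4, 23.7, 20.8 and 19.2 FPKM at 4 to 20 hr to 15.6, 13.6, 15.2, 14.8, 13.7 and 13.5 FPKM at 24 to 44 hr. Control stayed between 17.1 and 22.4 FPKM with a median of 20.02 FPKM. CDT1 was therefore higher in 6AN at the first 5 time points and lower at the other 7, and its mean log2 ratio was 0.19 over the first 6 time points and -0.40 over the last 6. ORC1, the origin recognition subunit whose amount changes over the cell cycle, had 6.60 FPKM in 6AN and 6.33 FPKM in control at 0 hr, and was lower in 6AN at the other 11 time points, with medians of 7.45 FPKM in control and 3.96 FPKM in 6AN.

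The 6 helicase subunits were lower together, and each had no overlap between conditions. MCM2 to MCM7 form 1 ring with 1 copy of each, and their control medians, which FPKM expresses per length, went from 27.8 FPKM for MCM6 to 93.1 FPKM for MCM7. MCM4 had 31.9, 38.2 and 42.4 FPKM in control as lowest, median and highest, and 11.2, 14.5 and 22.2 FPKM in 6AN, a mean log2 ratio of -1.24 ± 0.25. MCM5 (chr22:35400122-35424502) had 53.0, 64.6 and 69.1 FPKM in control, and 18.2, 31.0 and 42.6 FPKM in 6AN, a mean log2 ratio of -1.07 ± 0.33. MCM3, MCM7 and MCM2 had mean log2 ratios of -1.04, -1.03 and -0.96. MCM6 had the smallest difference of the ring, at -0.86 ± 0.15, with medians of 27.8 FPKM in control and 15.4 FPKM in 6AN.

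CDC45 and the GINS subunits, which turn the ring into the active helicase, had the lowest median log2 ratio of the 8 roles, at -1.25. GINS2 (chr16:85677673-85688982) had 56.3, 60.9 and 70.3 FPKM in control as lowest, median and highest, and 13.8, 18.8 and 32.1 FPKM in 6AN. Its mean log2 ratio of -1.51 ± 0.42 was the lowest of the members at a pseudocount of 1, but with one of 0.1 it was -1.56, above those of CCNE2 (-1.67) and MCM10 (-1.61). Its 6AN libraries had a mean of 35.4% of the control mean, against 30.6% for CCNE2 and 33.3% for MCM10. CDC45 (chr22:19479825-19520612) had 30.2, 35.7 and 40.5 FPKM in control, and 7.71, 12.8 and 17.0 FPKM in 6AN, a mean log2 ratio of -1.40 ± 0.34. GINS1, GINS3 and GINS4 had mean log2 ratios of -1.25, -0.96 and -0.89, and none of the 5 genes overlapped between conditions.

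**Figure D2:**
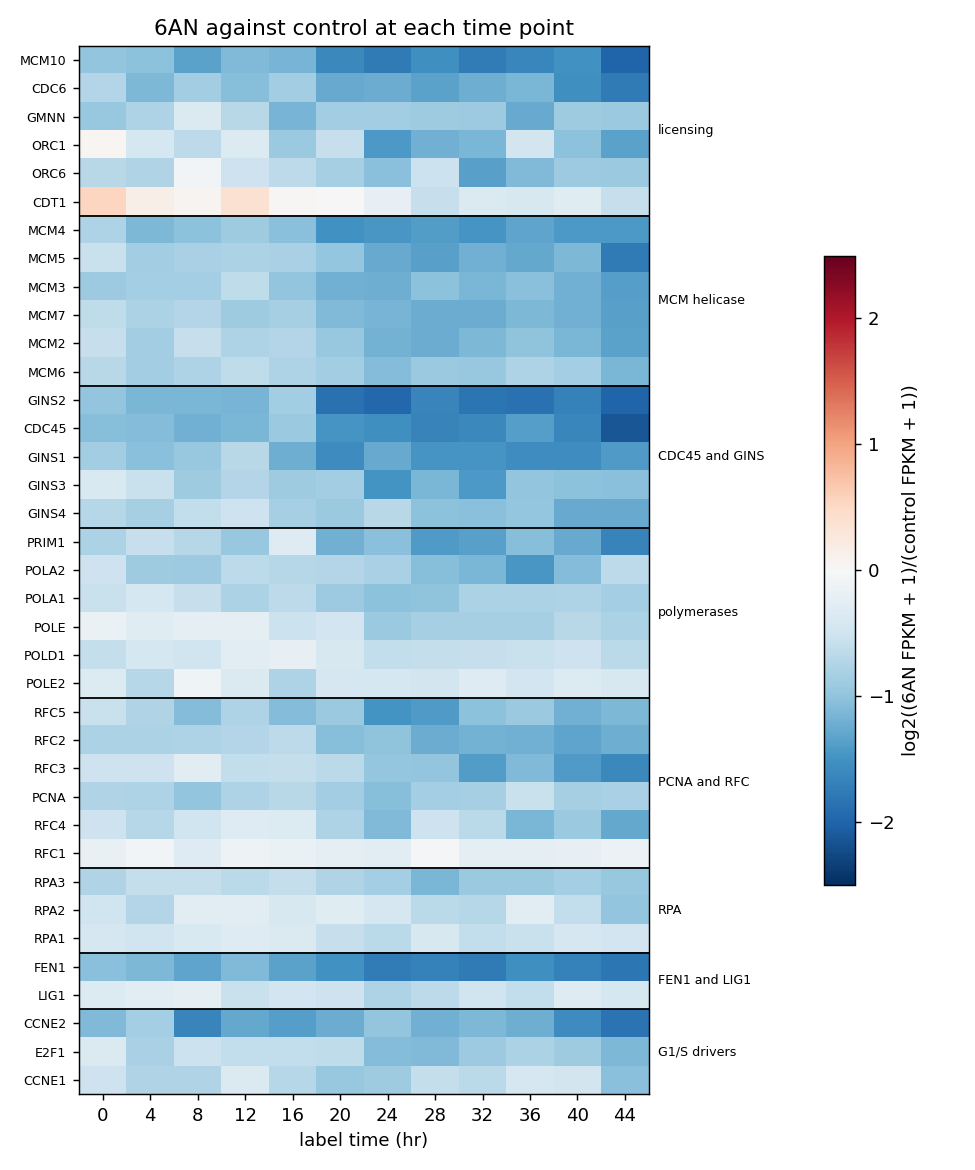
Heatmap of log2((6AN FPKM + 1)/(control FPKM + 1)) for the 37 members (rows, grouped by role) at 12 label times in hr (columns), with blue for lower and red for higher in 6AN on a scale from -2.5 to 2.5. The CDC45 and GINS block is darkest, CDT1 turns from red to blue after 16 hr, RFC1 stays near white, and the columns from 20 hr on are darker than those before.

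The polymerase genes were lower at all 12 time points in 6 of 6 cases but differed in size. PRIM1, the catalytic subunit of primase, had 23.4, 27.6 and 37.2 FPKM in control as lowest, median and highest, and 11.04, 13.2 and 20.4 FPKM in 6AN, a mean log2 ratio of -1.03 ± 0.38. POLA2, the accessory subunit of polymerase alpha, had 5.09, 7.49 and 8.04 FPKM in control, and 2.32, 3.40 and 4.63 FPKM in 6AN, a mean log2 ratio of -0.89 ± 0.26. Its catalytic partner POLA1 had a mean log2 ratio of -0.76. POLE and POLD1, the catalytic subunits of the leading and lagging strand polymerases, were closer to control. POLE had 11.4, 13.4 and 15.03 FPKM in control, and 6.23, 8.67 and 12.3 FPKM in 6AN, so that the ranges overlapped. POLD1 had 28.97, 31.8 and 38.8 FPKM in control, and 18.6, 22.6 and 26.7 FPKM in 6AN, without overlap. POLE2, a subunit of polymerase epsilon, overlapped as well, at a mean log2 ratio of -0.43 ± 0.17.

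Among the clamp and its loader, the large RFC subunit stood apart from the small subunits. PCNA (chr20:5114952-5126622), the sliding clamp, had 97.8, 108 and 123 FPKM in control as lowest, median and highest, and 53.7, 62.1 and 69.3 FPKM in 6AN, a mean log2 ratio of -0.82 ± 0.13. RFC5 had 17.1, 21.1 and 24.5 FPKM in control, and 6.88, 9.65 and 12.8 FPKM in 6AN. RFC2 had 25.7, 28.7 and 33.5 FPKM in control, and 10.4, 13.7 and 18.9 FPKM in 6AN. The mean log2 ratios of RFC5, RFC2, RFC3 and RFC4 were -1.03, -0.999, -0.89 and -0.73, and none of the small subunits overlapped between conditions. RFC1 (chr4:39287448-39366381), which makes the loader specific for PCNA, had 33.1, 35.7 and 38.0 FPKM in control, and 28.2, 31.5 and 33.9 FPKM in 6AN. It was lower at all 12 time points, but its ranges overlapped and its mean log2 ratio was -0.19 ± 0.08.

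FEN1 (chr11:61792636-61797242), the nuclease that trims flaps from Okazaki fragments, had 60.3, 68.1 and 75.4 FPKM in control as lowest, median and highest, and 17.9, 23.3 and 33.4 FPKM in 6AN, a mean log2 ratio of -1.48 ± 0.28. LIG1, the ligase that seals those fragments, had 23.3, 28.2 and 30.7 FPKM in control, and 15.4, 19.6 and 22.7 FPKM in 6AN, a mean log2 ratio of -0.48 ± 0.16. Neither overlapped between conditions. The subunits of RPA, which coats single-stranded DNA, were also separated. RPA3 had 31.5, 37.9 and 45.1 FPKM in control, and 19.5, 20.4 and 24.2 FPKM in 6AN. RPA2 had 31.5, 33.5 and 40.1 FPKM in control, and 19.1, 24.3 and 28.5 FPKM in 6AN. The mean log2 ratios of RPA3, RPA2 and RPA1 were -0.80, -0.52 and -0.48.

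The drivers of S-phase entry were separated between conditions in 3 of 3 genes. CCNE2, which encodes a cyclin E partner of CDK2, had 4.60, 5.54 and 7.12 FPKM in control as lowest, median and highest, and 1.18, 1.68 and 2.25 FPKM in 6AN. Its mean log2 ratio was -1.29 ± 0.28, and its mean in 6AN was 30.6% of control, the lowest share among the members. CCNE1, the other cyclin E, had 30.0, 35.8 and 40.8 FPKM in control, and 18.02, 21.5 and 25.7 FPKM in 6AN, a mean log2 ratio of -0.68 ± 0.21. E2F1, the activating E2F factor, had 15.6, 18.7 and 19.7 FPKM in control, and 6.82, 10.1 and 12.1 FPKM in 6AN, a mean log2 ratio of -0.79 ± 0.25.

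**Figure D3:**
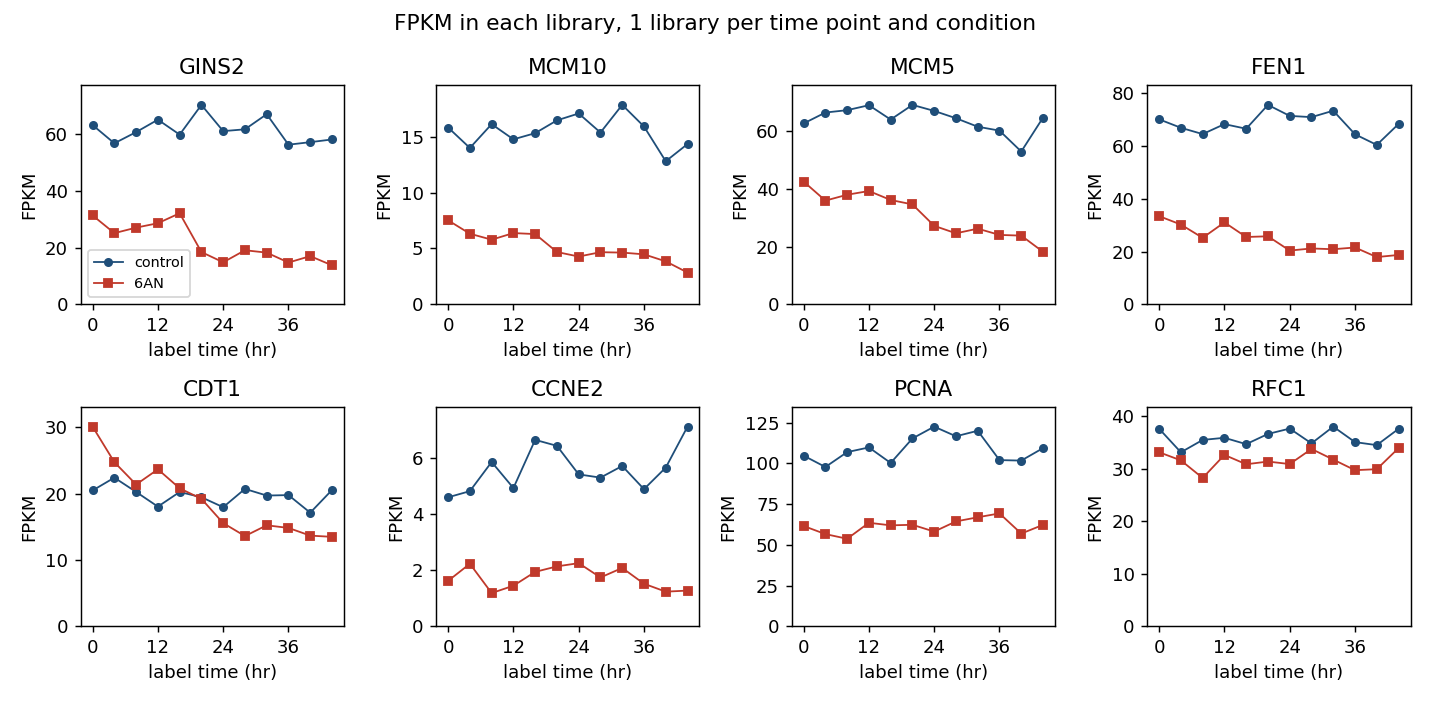
FPKM of 8 members (y axes from 0) against label time in hr, with 1 point per library, blue circles for control and red squares for 6AN. GINS2, MCM10, MCM5, FEN1, CCNE2 and PCNA stay apart at all 12 time points, CDT1 crosses control after 16 hr, and RFC1 lies just below it.

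The level within 6AN also moved over the time course, and did so in most members. Each table was fitted by limma on log2(FPKM + 1) with a linear time term and 24 hr cosine and sine terms, and p-values were adjusted by Benjamini-Hochberg over all 13979 expressed loci. In 6AN, 28 members fell at an adjusted p of at most 0.05 and none rose, while 13.1% of expressed loci fell and 10.8% rose. None rose by a Spearman rank test either. An unadjusted limma p under 0.05 in 6AN, in either direction, was reached by 30 members and by 5160 of the 13979 expressed loci. In control, none of the 37 passed in either direction by limma or by a Spearman rank test. None passed in a comparison of the second with the first 24 hr either. By limma in control, 6 members and 2790 of the 13979 expressed loci had an unadjusted p under 0.05. Of expressed loci, 2.89% fell and 2.58% rose in control. The adjustment was made within each condition, so a similar unadjusted p could pass in 6AN and not in control. By limma, RFC3 in control had p = 0.0041 (adjusted p = 0.062), and RPA2 in 6AN had p = 0.0054 (adjusted p = 0.029). The members' median slope was -0.38 log2 per 24 hr in 6AN and 0.00 in control, where slopes went from -0.25 (GMNN) to 0.30 (RFC3). Whether the slopes differed between conditions was not tested, since the tables were normalized separately.

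The members with the smallest adjusted p in 6AN came from most roles. MCM5 fell by 0.64 ± 0.047 log2 per 24 hr (SE of the fit, adjusted p = 0.000108) and CDT1 by 0.65 ± 0.060 (adjusted p = 0.000258), both by limma. Their means over the last 6 libraries were 63.7% and 61.7% of those over the first 6. POLE fell by 0.47 log2 per 24 hr and MCM10 by 0.51 (limma, adjusted p = 0.000496 and 0.000665). MCM7, MCM2 and MCM4 fell by 0.41, 0.43 and 0.44 log2 per 24 hr, FEN1 by 0.47, GINS4 by 0.39, CDC45 by 0.50, POLD1 by 0.28 and RFC2 by 0.42, with adjusted p of at most 0.00175 by limma. The steepest slope was that of GINS2, which fell by 0.69 ± 0.104 log2 per 24 hr (limma, adjusted p = 0.00202).

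The 9 members that did not pass in 6AN were MCM6, PCNA, RFC1, POLE2, POLA1, LIG1, GINS3, CCNE1 and CCNE2. MCM6 was the only helicase subunit among them, with a slope of 0.01 ± 0.062 log2 per 24 hr (limma, adjusted p = 0.924). In control its slope was 0.21 ± 0.062 (limma, adjusted p = 0.089), and without the 40 hr library it rose (0.25, adjusted p = 0.0229). PCNA, CCNE1 and CCNE2 had slopes of 0.07, -0.05 and -0.04 log2 per 24 hr in 6AN, and their log2 ratios to control were alike in the first and last 6 time points (-0.81 and -0.82, -0.67 and -0.68, -1.25 and -1.32). Of the 28 calls, 18 held when any 1 of the 12 time points was left out and 10 were lost without at least 1 of them. PRIM1 (adjusted p = 0.0341) was lost when any 1 of 8 time points was left out, with adjusted p up to 0.103 by limma. Without the 0 hr library 19 members fell, and without the 44 hr library 23 fell.

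**Figure D4:**
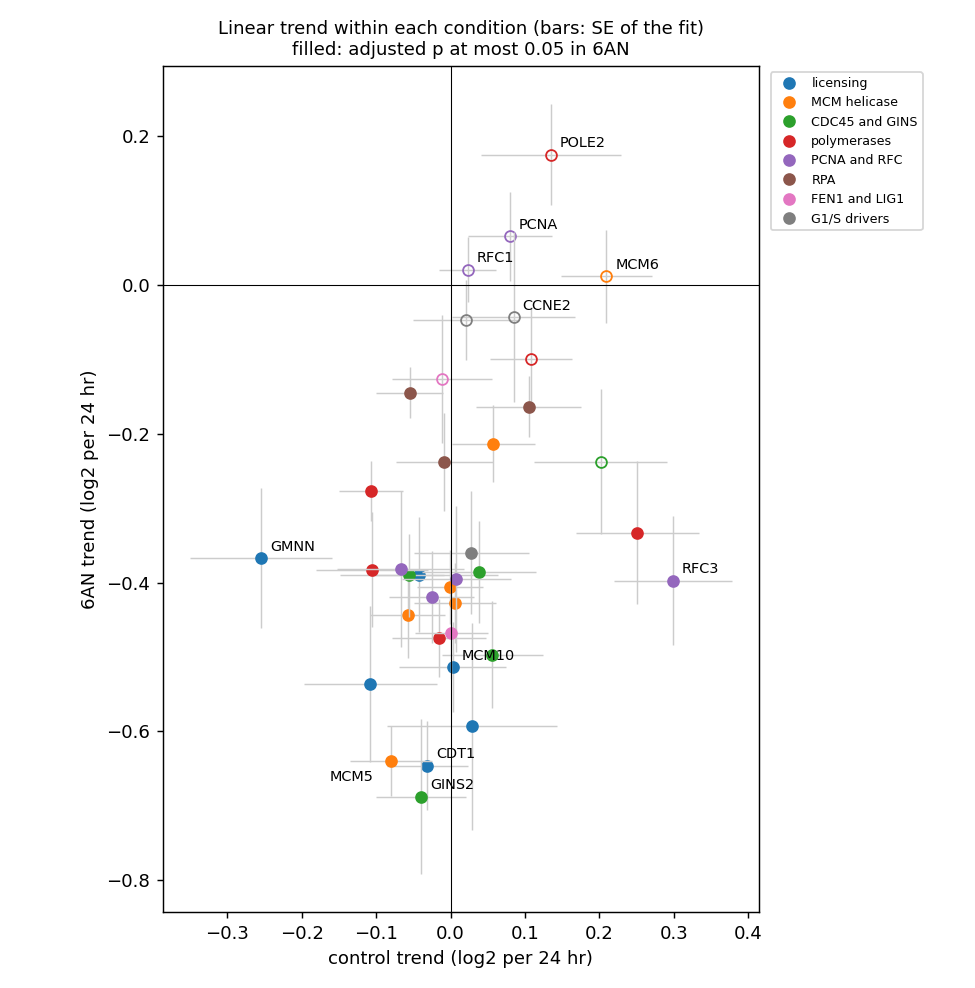
Linear trend of each member in control (x axis) against that in 6AN (y axis), both in log2 units per 24 hr, with bars for the SE of each fit and filled points for members that fell in 6AN at an adjusted p of at most 0.05. Filled points lie between -0.69 and -0.14 on the y axis, and control slopes scatter around 0 between -0.25 and 0.30.

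The decline in 6AN was spread over the series, with the largest step between 20 and 24 hr. At 0 to 20 hr, 35, 31, 30, 32, 27 and 24 of the 37 members were above their own 6AN mean, and at 24 to 44 hr 4, 11, 12, 6, 1 and 5 were. Over all expressed loci, 42.3% to 51.6% were above their own mean at each time point of 6AN. The members' median log2 ratio to control was -0.60 at 0 hr, -0.88 at 20 hr, -1.04 at 24 hr and -1.15 at 44 hr. The ratio was lower in the last 6 than in the first 6 time points in 36 members, with POLE2 the exception (-0.45 and -0.41), and in 7060 of the 13979 expressed loci. In control, 23, 18, 12, 13, 11 and 28 members were above their own mean at 0 to 20 hr, and 21, 25, 33, 10, 2 and 24 at 24 to 44 hr. Control thus had steps of similar size, up between 16 and 20 hr and down between 32 and 36 hr, but the number returned to 24 at 44 hr.

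A 24 hr rhythm was not called in any member. By limma's F test on the cosine and sine terms, 0 of 37 members passed in control and 0 in 6AN, and 0 passed by an ordinary F test. Among all expressed loci 0.00715% (1 locus) passed in control and 0% in 6AN. At an unadjusted p under 0.05 stood 1 member in control (GINS4) and 3 in 6AN, against 6.72% and 7.89% of expressed loci. The times of the fitted peaks in control, given as a description, were between 22 and 4 hr in 27 members (73.0%) and in 3775 of the 13979 expressed loci, a window chosen after the values were seen. In 6AN, 7 members (18.9%) and 25.6% of expressed loci had fitted peaks in that window. Between 12 and 18 hr, a second window chosen after the values were seen, 19 members (51.4%) and 31.1% of expressed loci had fitted peaks in 6AN, and 1 member (2.70%) and 3776 expressed loci in control. The first window in control also held the peaks of all 20 mitotic genes described below. It held those of 18 of 28 further replication genes and 9 of 27 regulators of S-phase entry. In 6AN the second window held 16, 6 and 11 of these lists. Genes share the same 12 libraries, so these peak times are not independent.

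**Figure D5:**
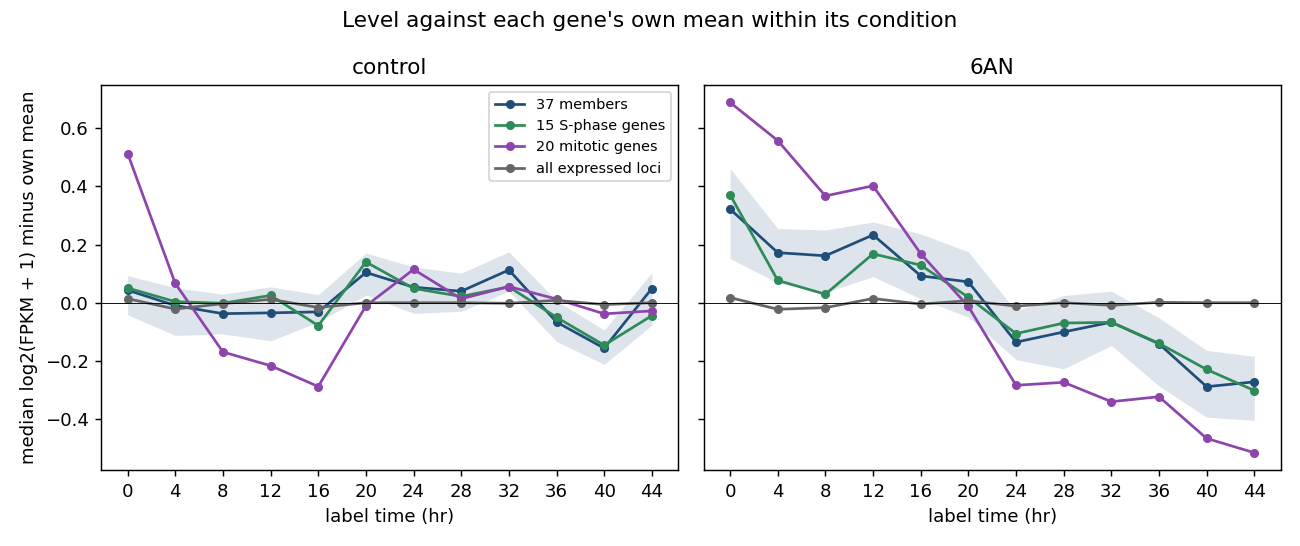
Median over genes of log2(FPKM + 1) minus each gene's own mean within its condition, against label time in hr, for control (left) and 6AN (right), with the interquartile range of the 37 members shaded. In 6AN the members go from 0.32 at 0 hr to -0.27 at 44 hr and the mitotic genes from 0.69 to -0.52, while all expressed loci stay near 0.

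Other genes of replication were lower to a smaller extent. Of 28 further replication genes, all expressed, 19 were lower at all 12 time points and POLE4 was higher at all 12, and the median log2 ratio was -0.51. CLSPN, WDHD1 and TIPIN, which act in checkpoint signaling and fork stability, had mean log2 ratios of -1.13 ± 0.27, -1.11 ± 0.25 and -1.04 ± 0.26. POLE4, a small subunit of polymerase epsilon, had a median of 34.0 FPKM in control and 45.8 FPKM in 6AN (0.43 ± 0.24), and was singled out after its value was seen. In 6AN, 11 of the 28 fell by limma.

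The 15 S-phase genes for nucleotide supply and chromatin assembly were lower at all 12 time points in 15 cases, with a median log2 ratio of -0.93. RRM2, the regulated subunit of ribonucleotide reductase, went from a median of 73.6 FPKM in control to 20.7 FPKM in 6AN (-1.77 ± 0.35). UHRF1, which directs maintenance DNA methylation, had -1.74 ± 0.30, and TK1, thymidine kinase, had -1.43 ± 0.43. In 6AN 8 of the 15 fell, and ASF1A and DUT, named after their values were seen, rose (limma, adjusted p = 0.0353 and 0.0171).

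The 20 mitotic genes had a median log2 ratio of -0.86, near that of the replication genes, but a different course. All 20 fell in 6AN, with a median slope of -0.70 log2 per 24 hr, and their median log2 ratio was -0.49 over the first 6 and -1.25 over the last 6 time points, against -0.74 and -1.04 for the 37 members. In only 2 of the 20 did every 6AN library lie below every control library, against 32 of the 37 members. Control levels of the mitotic genes were high at 0 hr, with a median of 0.51 log2 above their own means, where that of the members was 0.04. The difference in course between the lists was not tested. NUSAP1, KIF20A and MKI67 had the largest differences, at -1.16, -1.10 and -1.04.

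The genes that regulate entry into S phase were mixed. Of 28 listed, 27 were expressed, with a median log2 ratio of -0.23, 13 lower and 3 higher at all 12 time points. CDC25A, E2F2 and E2F8, a phosphatase that activates CDK2 and E2F family members, had -1.07 ± 0.43, -1.05 ± 0.39 and -0.95 ± 0.41. The 3 genes higher at all 12 time points, named after their values were seen, were CCND3, CCND2 and RBL2, at 0.72, 0.39 and 0.25. In 6AN 5 fell and 4 rose by limma. Of the line's own marker genes 5 of 7 expressed were lower at all 12 time points, with COL1A1, a collagen gene, at a mean of 128 FPKM in control and 33.9 FPKM in 6AN. The part of these other lists in the members' levels was not tested.

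Taken over the 4 libraries together, BMAL1 or CLOCK peaks lay near the members as often as near other loci. A peak of BMAL1 or CLOCK in any of the 4 libraries lay within 5 kb of 11 of the 37 members, the same share as the 29.7% of expressed loci. BMAL1 peaks lay near 4 members in control (10.8%) and 8 in 6AN (21.6%), against 14.5% and 19.7% of expressed loci. CLOCK peaks lay near 0 members in control and 1 in 6AN (2.70%), against 2.16% and 9.11% of expressed loci. The members' loci had a median length of 24380 bases, against 33525 for expressed loci, and the shares were not adjusted for length. In control the BMAL1 peaks were near CCNE1, POLA2, POLD1 and RFC2. In 6AN they were near CDC6, CDT1, MCM7, POLA2, POLE, RFC2, RFC3 and RFC4, and the CLOCK peak lay in PCNA. The peak at CDC6 (chr17:40287612-40287812, hg38) reached into the upstream end of the window printed above. With 1 library per antibody and condition, a gain or loss of a peak has no replicate check.

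Sites shared by BMAL1 and CLOCK were deposited with read signals, 147 for control and 439 for 6AN. CCNE1 was the only member that was the nearest gene to a shared site, and the same intergenic site was in both lists, at chr19:29843990-29844990 in the control list, 32496 bases from the CCNE1 start. There the BMAL1 signal was 57.6 tags in control and 74.1 tags in 6AN, per 10000000 tags in 1000 bp, and the CLOCK signal was 63.7 and 157 tags. The medians over the 147 sites were 38.2 and 42.4 tags for BMAL1, and 45.4 and 80.2 tags for CLOCK. Input gave 13.5 and 14.0 tags at the site, H3K4me3 354 and 268 tags, and H3K9ac 106 and 133 tags. No test was possible with 1 library each, and the distance to CCNE1 does not show which gene the site serves.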

How the data were processed

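The authors sequenced rRNA-depleted total RNA as 50 bp single-end reads and deposited FPKM per locus of a merged annotation on hg38, with TopHat and Cufflinks named in the submitters' processing notes (versions are not given in the sources used here). Control and 6AN had separate tables, each normalized across its own 12 libraries. RNA was extracted in triplicate, with 1 library per time point and condition, and whether extracts were pooled is not stated. For ChIP-seq, the authors deposited HOMER peaks per library merged within 200 bp, and the signal (coverage as tags in 1000 bp, scaled to 10000000 tags) at shared sites. The merged list also carries a peak score and a count of merged peaks that the authors deposited; neither gave a value here. The distance to a start site, entered as a score, is from the authors' deposited HOMER annotation.

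Members and lists were chosen with earlier results of these data known. Values were analysed as log2(FPKM + 1) in loci with a mean of at least 1 FPKM. Trends and 24 hr rhythms were fitted with limma 3.58.1 (R 4.3.3), two-sided, and tested on simulated data with independent errors. Of 200 simulated slopes of 0.5 log2 per 24 hr in size, 124 were called in control and 157 in 6AN, so the control fit was less sensitive. With 1 library per time point, p-values rest on the spread of time points around the fitted curve, and time points of 1 culture series may not be independent. Level ratios and peaks had no test. Named in full were the 2 members of each role with the largest mean log2 ratio in size, the 12 with the smallest adjusted p, and E2F1, CCNE1, CCNE2 and PCNA, and up to 3 genes of each other list, by the size of the ratio. Alternatives were another pseudocount, filter, scaling, period or test and each time point left out. Promoters were taken from RefSeq (GRCh38.p14).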

Additional observations from a re-analysis of the deposited data

How the results depend on the processing

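The counts and medians of the level results held. Between 34 and 35 members were lower at every time point under another pseudocount (0.1), filter or scaling, or in loci with 1 gene name, and 35 or 36 with a time point left out, and the members' median log2 ratio stayed between -0.96 and -0.84. The mean log2 ratio of CCNE2, a gene of low FPKM, moved by more than its SD, from -1.29 to -1.67, at the pseudocount of 0.1, and no other member's did under these settings. The median of all loci was 0.00488 when the 24 libraries were rescaled together and -0.00678 with every locus above 0. In 6AN, 23 to 28 members fell under 6 other settings and 19 to 28 with a time point left out, where 0 or 1 rose (POLE2, without 0 hr). GINS3 passed without 44 hr. The calls lost without at least 1 time point were those of PRIM1, RPA2, RFC5, RFC4, GMNN, MCM3, ORC1, RPA1, E2F1 and RPA3. Across all loci, comparing the second with the first 24 hr gave 1218 that fell in 6AN, and 236 that fell and 184 that rose in control. With a time point left out, 1084 (without 0 hr) to 1911 loci fell in 6AN, 216 (without 12 hr) to 395 fell and 196 (without 44 hr) to 304 rose in control, and 0 or 1 member rose in control (MCM6, without 40 hr). The rhythm calls among all loci were 0 to 2 in control and 0 or 1 in 6AN (without 32 hr), and 0 in control at a period of 28 hr. Among slopes that did not pass, MCM6 in 6AN was -0.00176 when the second was compared with the first 24 hr and -0.0178 to 0.0444 with a time point left out, CCNE2 was -0.119 to 0.0472 and RFC1 was -0.00341 to 0.0516. The cause of these changes was not tested. Peaks lay within 1 kb of 11 and within 20 kb of 13 members. The tables give no counts, so counting error was not computed. Levels were paired by label time in the log2 ratios. No test was run on these pairs, since the tables were normalized separately, and the labels number no replicates.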
